A study of Mus musculus with 55 samples.

Results

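Cerebella of mouse pups labelled Pon1 knockout (KO) were compared after repeated dosing with chlorpyrifos oxon (CPO) at 0.5 mg per kg per day or with the vehicle, dimethyl sulphoxide (DMSO). The comparison holds the 3 arrays titled for KO at CPO 0.5 and the 4 titled for KO with DMSO, 7 of the 55 arrays of the series, and it was read across 14949 genes with one symbol. Both groups carried the genotype label Pon1-/- on strain C57Bl/6, as all arrays carry that strain, and the submitters state that arrays were lost to quality checks. Pups were injected under the skin once a day from postnatal day 4 to day 21 and cerebella were taken at day 22. The treatment label spells the compound as chlorpyrifos while the design text names chlorpyrifos oxon, and both abbreviate it CPO. Groups used beside these were 5 KO arrays at CPO 0.35, 3 wild-type (WT) arrays at CPO 0.5 and 6 with vehicle, and 5 arrays at CPO 0.5 and 4 with vehicle for each of Q192 and R192, 2 lines that carry a human PON1 transgene. The labels do not give how the KO allele was made, the sex of the pups, or whether each array is a separate animal. The tests thus measure only spread between arrays, estimated over all 55 arrays of the series.

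Chlorpyrifos oxon is the active metabolite of the insecticide chlorpyrifos. It blocks acetylcholinesterase and other serine hydrolases by bonding to their active-site serine, which leaves acetylcholine acting longer on nicotinic and muscarinic receptors. Paraoxonase 1 (PON1), made mainly in liver and carried in plasma, hydrolyses the oxon before it reaches the tissues, and mice without it are more sensitive to the compound. The cerebellum at weaning holds a very large population of granule neurons, Purkinje cells, interneurons, Bergmann glia and maturing oligodendrocytes.

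The 7 arrays carried the markers of cerebellum. Gabra6, a receptor subunit of granule neurons, lay between 12.48 and 13.07 on the log2 scale, and Pcp2, a Purkinje cell gene, between 9.99 and 10.82. Pon1 itself separated the arrays labelled KO from those labelled WT, but with the higher readings in KO. It read 9.92, 10.13 and 9.94 in KO arrays at CPO 0.5 and 10.35, 9.95, 10.03 and 10.29 in KO arrays with vehicle. In WT it read 4.79 to 5.36 at CPO 0.5 and 4.88 to 5.55 with vehicle. The high reading was shared by Q192, with means of 10.13 at CPO 0.5 and 10.06 with vehicle, and by R192, with 10.12 and 10.15. Which part of the transcript the probes read relative to the deletion is stated in none of the labels, so this does not check the loss of the protein, and KO and WT stand for the labels throughout. One array, vehicle replicate 4, had Xist at 11.26, against 5.68 to 5.89 in the 3 CPO arrays and 5.52 to 5.82 in the other vehicle arrays, and its Y-linked Eif2s3y was 4.15. Vehicle replicates 1 and 4 stood apart along the first principal axis of the 55 arrays, at 28.85 and 10.40, against -12.92, -2.70 and -16.55 in the CPO arrays and -11.79 and -4.38 in the other vehicle arrays. The closest pair of the 7 arrays was CPO replicate 1 and vehicle replicate 2, with a root mean square difference of 0.129. CPO replicates 1 and 2 share a number in their description, as do vehicle replicates 2 and 3, and the labels do not say what that number stands for.

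No gene passed between CPO 0.5 and vehicle in the arrays labelled KO (0 of 14949, percent called 0, limma with Benjamini-Hochberg adjustment, smallest adjusted p = 0.387). Before adjustment, 1913 genes (12.8% of those tested) had a p under 0.05, 1072 higher (7.17%) and 841 lower (5.63%). With each array centred on its own median the split turned to 696 higher and 1138 lower. Differences were above 0 for 56.7% of genes and below 0 for 43.3%. The groups did not overlap for 1335 genes (8.93%), with the CPO arrays above for 798 (5.34%) and below for 537 (3.59%). With centred arrays that split was 597 above and 586 below. Differences were small: 61 genes differed by over 0.5 on the log2 scale and 1 by over 1, and the median standard error was 0.104. The count of 1913 rested on few arrays. Without vehicle replicate 1 it was 326, without vehicle replicate 4 it was 1143, and without both it was 110, while without vehicle replicate 2 it was 3358 and without vehicle replicate 3 it was 2711. Without CPO replicate 3 it was 557. The spread behind these p-values was estimated over the arrays of all groups, and on the 7 arrays alone the count was 789. Of the 1913 genes, vehicle replicate 1 was the vehicle array farthest from the CPO mean for 75.8%, against 59.1% of all genes tested. The count of 1335 was 2313, 3650 and 2347 without CPO replicates 1, 2 and 3 and 3145 without vehicle replicate 2. On the arrays of date 1 alone the count of 1913 was 525, and on date 2 alone, where CPO has 1 array, it was 904.

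The 12 genes of smallest p on the higher side lay above vehicle in every array. Chrnb4, the beta4 subunit of nicotinic acetylcholine receptors, is the gene among them that belongs to the cholinergic system. It read 7.18, 7.04 and 7.24 in the CPO arrays, against 6.70, 6.83, 6.90 and 6.89 in the vehicle arrays. All CPO arrays lay above all vehicle arrays, with a difference of 0.33 ± 0.09 (SE), which did not pass (limma adjusted p = 0.387). It was 0.30 ± 0.12 without vehicle replicates 1 and 4, 0.34 on date 1 and 0.34 on date 2, and lay between 0.28 and 0.38 in 27 alternatives. The 5 arrays labelled KO at CPO 0.35 read 7.05, 7.03, 7.04, 6.96 and 7.24, also all above the same vehicle arrays. Chrnb4 was chosen by its p against those vehicle arrays, so neither this nor the alternatives are separate support. Chrnb4 averaged 6.82 ± 0.07 (SD, n = 3) in WT at CPO 0.5 and 6.95 ± 0.09 (SD, n = 6) in WT with vehicle, which is a difference of the other sign. In Q192 it averaged 6.91 ± 0.13 (SD, n = 5) at CPO 0.5 and 7.01 ± 0.09 (SD, n = 4) with vehicle, and in R192 6.97 ± 0.06 (SD, n = 5) at CPO 0.5 and 6.95 ± 0.12 (SD, n = 4) with vehicle. The KO vehicle mean of 6.83 ± 0.09 (SD, n = 4) was the lowest of the 4 vehicle means, and it lay within the spread of the WT vehicle arrays (6.81 to 7.06).

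**Figure D1:**
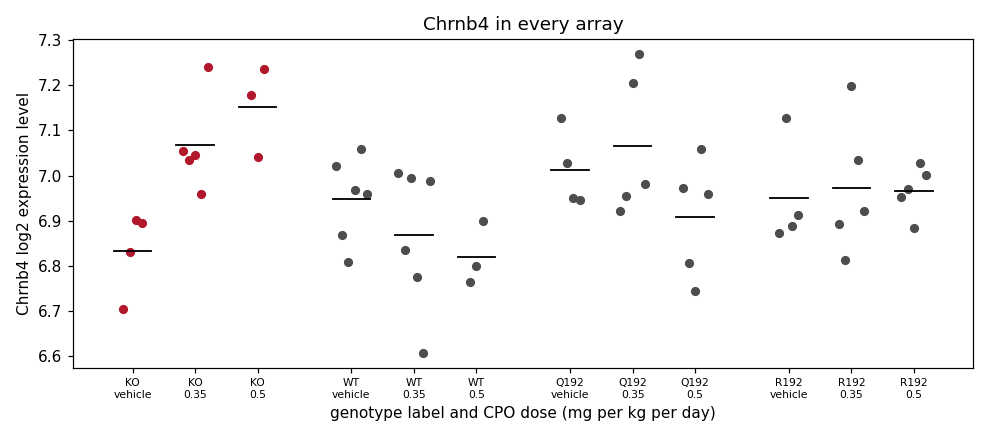
Log2 expression level of Chrnb4 in each array, by genotype label and by CPO dose in mg per kg per day, with points for arrays and lines for group means. The 3 KO arrays at 0.5 lie between 7.04 and 7.24 and the 4 KO vehicle arrays between 6.70 and 6.90, while the groups of the other genotypes overlap with their vehicle arrays.

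The region before the start of Chrnb4 is shown because Chrnb4 is the acetylcholine receptor gene among those of smallest p. It comes from RefSeq on GRCm38.p6, minus strand, chr9:55048545-55048794, the 250 bases before the gene start, read 5′ to 3′. Capitals mark CCACCC or its reverse complement GGGTGG, a box bound by Sp and Kruppel-like zinc finger proteins, found once in each orientation.
Chrnb4: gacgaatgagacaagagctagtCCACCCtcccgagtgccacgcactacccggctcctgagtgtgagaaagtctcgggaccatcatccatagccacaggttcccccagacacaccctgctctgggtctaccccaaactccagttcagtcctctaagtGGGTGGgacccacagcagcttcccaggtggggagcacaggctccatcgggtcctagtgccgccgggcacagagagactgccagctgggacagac
The letters occur on either strand in 28.1% of 32851 promoter windows of that length, and a match is a description of the letters.

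Genes of low level were also among them. Rdh1, a retinol dehydrogenase, read 6.80, 6.78 and 6.82 in the CPO arrays, against 6.41, 6.42, 6.28 and 6.46 in the vehicle arrays. The difference was 0.39 ± 0.11 (SE) and was 0.44 ± 0.14 without vehicle replicates 1 and 4. Foxi3, a forkhead transcription factor of ear and ectoderm development, read 6.86, 6.63 and 6.76 in the CPO arrays, against 6.22, 6.43, 6.60 and 6.34 in the vehicle arrays. Both sit near the filter at 6.44, so their levels are among the lowest tested, and neither gene passed. Chrnb4 was of low level too, with a mean over the series of 6.96, at percentile 13.2 of the genes tested. Odf3b, an outer dense fibre gene, read 7.92, 7.93 and 7.98 in the CPO arrays, against 7.73, 7.68, 7.55 and 7.71 in the vehicle arrays, with no overlap.

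None of the other 8 higher genes passed either. L1cam, a neural cell adhesion molecule of growing axons, read 8.98, 9.11 and 9.37 in the CPO arrays, against 8.68, 8.93, 8.93 and 8.52 in the vehicle arrays. Its difference of 0.40 ± 0.12 (SE) was 0.22 ± 0.14 without vehicle replicates 1 and 4. Ifngr2, a chain of the interferon gamma receptor, read 10.32, 10.21 and 10.28 in the CPO arrays, against 9.83, 10.07, 10.02 and 10.05 in the vehicle arrays. Sh2b2, an adaptor of insulin and growth factor receptors, read 7.86, 7.91 and 8.001 in the CPO arrays, against 7.35, 7.74, 7.73 and 7.77 in the vehicle arrays, and vehicle replicate 1 was the low array. Hs3st6 (a heparan sulphate sulphotransferase), Aar2 (a factor of U5 spliceosome assembly), Slc35c2 (a Golgi transporter of the fucose pathway), Pald1 and Cracdl differed by 0.24 to 0.35, all with CPO arrays above vehicle arrays. Of the vehicle arrays, replicate 1 was the lowest for each of these genes other than Rdh1 and Odf3b (replicate 3) and Hs3st6 and L1cam (replicate 4).

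Among the 12 genes of smallest p on the lower side, the groups did not overlap in 10. Car13, a cytosolic carbonic anhydrase, read 7.55, 7.49 and 7.70 in the CPO arrays, against 8.81, 7.99, 8.15 and 8.13 in the vehicle arrays. The difference was -0.68 ± 0.21 (SE) and -0.45 ± 0.21 without vehicle replicate 1, the highest array. Gm1976, a gene model, read 7.65, 7.76 and 7.71 in the CPO arrays, against 8.65, 8.59, 7.72 and 9.10 in the vehicle arrays, so that vehicle replicate 3 lay with the CPO arrays. Gm1976 was between 7.63 and 9.58 in the KO arrays at CPO 0.35, and no array of the other genotypes was below 9.05. Sat1, which acetylates spermidine and spermine, read 9.91, 10.13 and 9.94 in the CPO arrays, against 10.60, 10.31, 10.31 and 10.50 in the vehicle arrays. Mis12, a kinetochore protein, read 8.75, 8.57 and 8.58 in the CPO arrays, against 8.97, 8.88, 8.82 and 8.93 in the vehicle arrays. Gpx8, a glutathione peroxidase of the endoplasmic reticulum, and Nbeal1, of the neurobeachin family, were lower by 0.52 ± 0.17 and 0.42 ± 0.14 on the log2 scale, and vehicle replicate 1 was the highest array for both. Herc4 (a ubiquitin ligase), Gm527, Cab39l (a scaffold of the kinase LKB1), Wdr92, Ccdc34 and Ccdc138 were lower by 0.28 to 0.49, with vehicle replicate 1 or 4 highest in each.

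**Figure D2:**
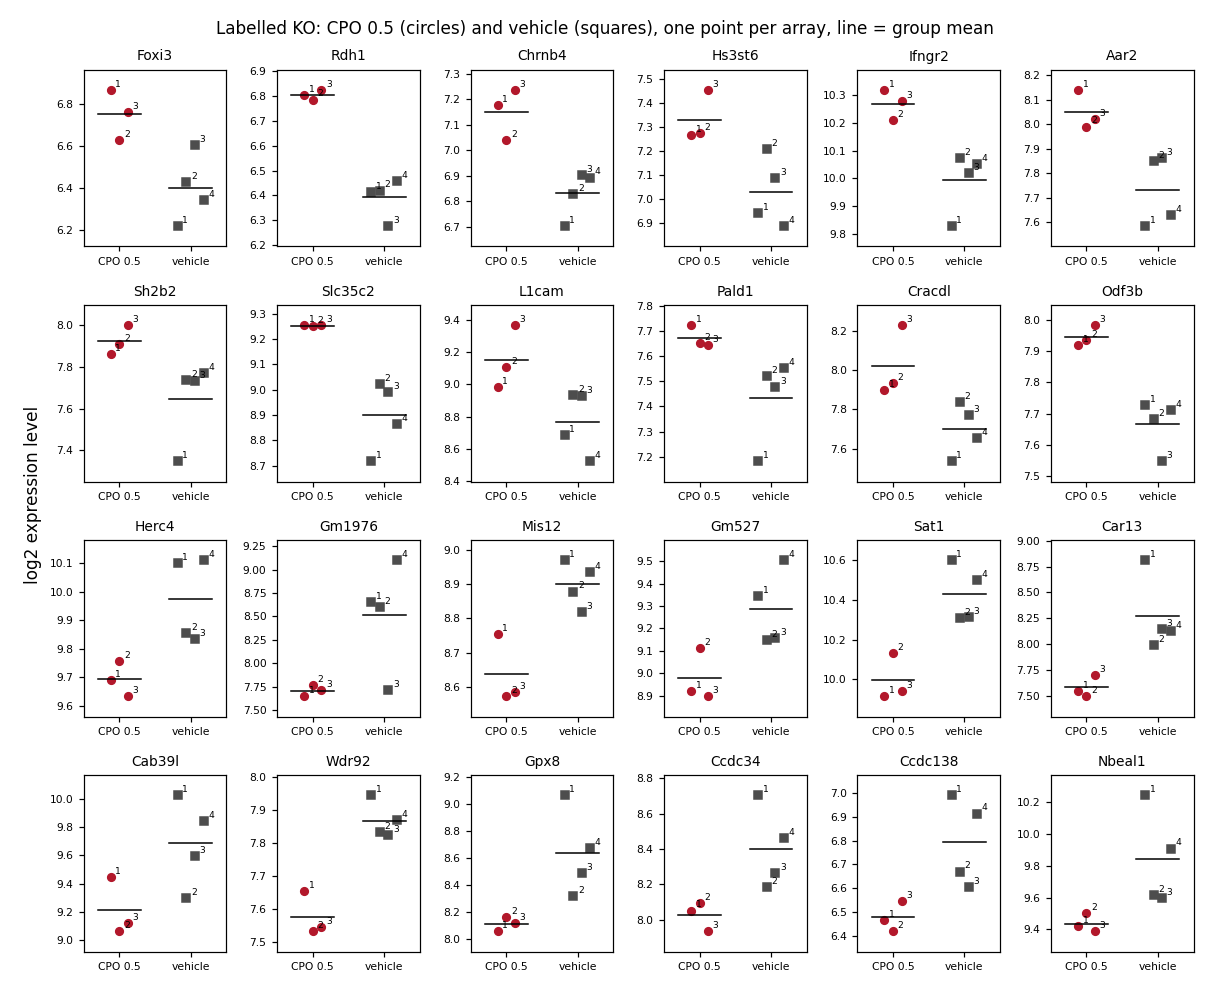
Log2 expression level of the 24 genes of smallest p, 12 higher and 12 lower, in the arrays labelled KO, CPO 0.5 as circles and vehicle as squares, numbered by replicate, with a line at each group mean. The groups do not overlap in 22 of the 24 genes, Gm1976 and Cab39l being the others, and the vehicle arrays farthest from the CPO arrays are mostly replicates 1 and 4.

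All 24 genes kept their direction without vehicle replicates 1 and 4, with the score on the first axis as covariate, and on each date alone. An unadjusted p under 0.05 was kept by 9 of the 24 without vehicle replicates 1 and 4, where 0.736% of all genes had one. The 9 were Foxi3, Rdh1, Chrnb4, Ifngr2, Sh2b2, Pald1, Odf3b, Mis12 and Wdr92. Such a p was kept by 21 with the axis as a covariate (1.72% of all genes) and by 17 on date 1 (3.51% of all genes). Since the 24 were chosen by their p on all 7 arrays, these counts describe them and do not test them.

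The largest differences among genes whose groups did not overlap involved other genes as well. Genes of Purkinje cells were among the higher ones. Dner, a Notch ligand-like surface protein of Purkinje cells, read 11.36, 11.46 and 11.45 in the CPO arrays, against 10.63, 11.22, 11.08 and 10.50 in the vehicle arrays. Atp2a3, a calcium pump of the endoplasmic reticulum, differed by 0.64 ± 0.32 (SE), Slc1a6, the Purkinje cell glutamate transporter EAAT4, by 0.49 ± 0.27, Plxdc1 by 0.56 ± 0.20 and Itpka, an inositol trisphosphate kinase, by 0.48 ± 0.19. Vehicle replicate 4 was the lowest array for Dner, Atp2a3, Slc1a6 and Itpka, and vehicle replicate 1 for Plxdc1. On the lower side stood Aspn, a matrix proteoglycan, at 6.25, 6.64 and 6.32 in the CPO arrays against 7.28, 6.93, 7.16 and 7.37 in the vehicle arrays. Zfp442 (-0.70 ± 0.25), Zfp455 (-0.58 ± 0.23) and Nlrp5-ps (-0.57 ± 0.25) followed beside Car13, and none of these genes passed.

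No gene on which the compound is known to act passed. Ache, which encodes acetylcholinesterase, read 8.99, 8.34 and 9.14 in the CPO arrays, against 7.80, 8.94, 8.60 and 8.56 in the vehicle arrays, and the groups overlapped (0.38 ± 0.23, SE). With the score on the first axis as covariate its difference turned to -0.066. Bche, butyrylcholinesterase, read 7.38, 6.97 and 7.39 in the CPO arrays, against 7.66, 7.40, 7.48 and 7.62 in the vehicle arrays, so the CPO arrays lay below, by 0.27 ± 0.17 on the log2 scale. Of 10 genes of acetylcholine breakdown, synthesis and transport tested, 8 were higher and 2 lower and 0 reached an unadjusted p under 0.05, where 7.17% of all genes did so on the higher and 5.63% on the lower side. Of 10 nicotinic subunits tested, 7 were higher and 3 lower, and Chrnb4 and Chrne (0.22 ± 0.09) had an unadjusted p under 0.05, both higher (20%, against 7.17% of all genes). These genes were of low level, with means over the series of 6.96 (Chrnb4) and 6.49 (Chrne), where the filter lay at 6.44. Differences in the nicotinic list ran from -0.59 to 0.33, so the largest was a fall, and no fall reached an unadjusted p under 0.05. The nicotinic median was 0.10, and 0.038 without vehicle replicate 1. Of 5 muscarinic receptors, Chrm1 did so on the higher side (20%, which is 1 gene), at 7.64, 7.61 and 8.03 in the CPO arrays against 7.50, 7.58, 7.64 and 7.64 in the vehicle arrays, while Chrm2 differed by -0.20 ± 0.29. Pon2 read 9.57, 9.46 and 9.31 in the CPO arrays against 9.71, 9.49, 9.52 and 9.65 in the vehicle arrays. Pon3, which like Pon2 is a lactonase of the paraoxonase family, read 6.45, 6.64 and 6.76 in the CPO arrays against 7.34, 6.75, 6.93 and 7.14 in the vehicle arrays, and both pairs of groups overlapped.

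Other serine hydrolases, the wider class of targets of organophosphates, counted 37 tested genes with a median difference of 0.08, against 0.03 over all genes. At an unadjusted p under 0.05, 6 were higher (16.2%, against 7.17% of all genes) and 2 lower (5.41%, against 5.63%). Faah, which breaks down the endocannabinoid anandamide, read 8.87, 8.79 and 9.01 in the CPO arrays, against 8.35, 8.86, 8.71 and 8.58 in the vehicle arrays. Esd, an esterase, read 9.54, 9.50 and 9.32 in the CPO arrays, all below its 9.81, 9.55, 9.68 and 9.86 in the vehicle arrays. The median of the list was 0.026 without vehicle replicate 1 and 0.0080 without vehicle replicates 1 and 4.

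Lists of neuronal function were mostly higher in the CPO arrays, by small amounts. Of 59 axon guidance genes, 50 were higher, with a median difference of 0.15, where 56.7% of all genes were higher. At an unadjusted p under 0.05, 8 were higher (13.6%, against 7.17% of all genes) and 0 lower (against 5.63%). Slit3, a secreted repellent of growing axons, read 8.13, 8.28 and 8.24 in the CPO arrays, against 7.97, 8.002, 7.997 and 7.82 in the vehicle arrays. Of 48 genes of the synaptic vesicle cycle, 35 were higher (median 0.13). At an unadjusted p under 0.05, 10 were higher (20.8%, against 7.17% of all genes) and 1 lower (2.08%, against 5.63%). Syn2, a synapsin that tethers vesicles, read 10.61, 10.56 and 10.72 in the CPO arrays, against 9.90, 10.55, 10.48 and 10.12 in the vehicle arrays, and Rab3a differed by 0.44 ± 0.16. Of 38 immediate early genes, which neurons switch on within minutes of activity, 30 were higher (median 0.12), 6 of them at an unadjusted p under 0.05 (15.8%, against 7.17% of all genes) and 0 of the lower ones. Egr1, a transcription factor of that class, read 7.65, 7.66 and 7.99 in the CPO arrays, against 7.15, 7.60, 7.52 and 7.25 in the vehicle arrays, and Ier5 differed by 0.31 ± 0.11. Without vehicle replicate 1 these 3 medians were 0.092, 0.089 and 0.055 in that order. Without vehicle replicates 1 and 4 they were 0.05 (axon guidance), 0.04 (synaptic vesicle cycle) and -0.0047 (immediate early genes).

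Among receptors, the GABA list (20 genes) had a median of -0.0030, with Gabbr2 and Gabbr1, the 2 subunits of the GABA-B receptor, higher by 0.39 ± 0.14 and 0.29 ± 0.12. The glutamate receptor list (23 genes) had a median of 0.07, with Grm2 at 0.36 ± 0.15 and Grik3 at 0.22 ± 0.11. Of 20 clock genes, 15 were higher (median 0.12), among them Dbp, a clock output factor, at 10.05, 9.996 and 10.23 in the CPO arrays against 9.22, 9.97, 9.97 and 9.49 in the vehicle arrays. Clock itself differed by -0.32 ± 0.12. The list's median was 0.049 without vehicle replicate 1 and turned to -0.02 without vehicle replicates 1 and 4.

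Stress lists were divided. Of 48 glutathione and oxidative stress genes, 18 were higher and 30 lower (median -0.02), with Slc7a11, the cystine importer, at -0.55 ± 0.21 beside Gpx8. Of 33 heat shock and unfolded protein genes, 16 were higher and 17 lower, with Dnaja1 and Dnajb9, chaperone partners, at -0.28 ± 0.12 and -0.26 ± 0.11, both below vehicle in every CPO array. The glucocorticoid list (19 genes, median 0.03) had none at an unadjusted p under 0.05, its nearest being Ddit4 (0.27 ± 0.15) and Sult1a1 (-0.35 ± 0.21). Cholesterol synthesis genes were 10 higher and 10 lower, with Srebf2, the regulator of that pathway, at 0.38 ± 0.18 and Sc5d at -0.21 ± 0.10. Retinoid enzymes were 11 higher and 11 lower, and Aldh1a1, which makes retinoic acid, read 12.17, 11.92 and 12.03 in the CPO arrays, below its 12.37, 12.23, 12.30 and 12.57 in the vehicle arrays.

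Proliferation and kinetochore lists had medians of 0.01 and 0.00091. Ccnb2, a mitotic cyclin, differed by -0.27 ± 0.09, and Pcna, the sliding clamp of DNA replication, read 9.81, 9.85 and 9.63 in the CPO arrays against 10.21, 9.94, 9.90 and 9.95 in the vehicle arrays, all CPO arrays being lower. Cenpq, a centromere protein, differed by -0.55 ± 0.19 with no overlap.

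Large gene families differed in direction. Of 309 Zfp genes, most of them DNA-binding zinc finger proteins, 205 were lower, with a median of -0.11. At an unadjusted p under 0.05, 56 were lower (18.1%, against 5.63% of all genes) and 12 higher (3.88%, against 7.17%). The list mean was 8.27, 8.36 and 8.23 in the CPO arrays, against 8.50, 8.28, 8.32 and 8.41 in the vehicle arrays, so the groups overlapped and vehicle replicates 1 and 4 were the highest arrays. The median was -0.05 without vehicle replicate 1, -0.01 without replicates 1 and 4, and turned to 0.0075 with the score on the first axis as covariate. Zfp595 differed by -0.41 ± 0.14 and Zfp839, the other way, by 0.20 ± 0.07. Of 48 small nucleolar RNAs, which guide chemical marking of ribosomal RNA, 45 were lower, 3 of them at an unadjusted p under 0.05 (6.25%, against 5.63% of all genes). Their median was -0.11, and -0.050 without vehicle replicate 1, and it turned to 0.018 with that covariate, with Snora33 at -0.34 ± 0.15 and Snord49b at -0.41 ± 0.19. Of 58 cytosolic ribosomal protein genes, 50 were lower (median -0.09, and -0.061 without vehicle replicate 1), but 2 did so at an unadjusted p under 0.05 (3.45%, against 5.63% of all genes), Rpl30 at -0.25 ± 0.12 and Rps25 at -0.24 ± 0.12. Mitochondrial ribosomal proteins (77 genes, 38 higher and 39 lower) had a median of -0.0019, with Mrpl42 at -0.43 ± 0.15 and Mrpl3 at 0.16 ± 0.06, and 80 respiratory chain genes had a median of -0.04, with Cox6c at -0.21 ± 0.09 and Uqcrb at -0.37 ± 0.16. Of 87 olfactory and vomeronasal receptors, 62 were higher (median 0.05), with Olfr545 at 0.25 ± 0.09 and, the other way, Olfr267 at -0.32 ± 0.11.

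**Figure D3:**
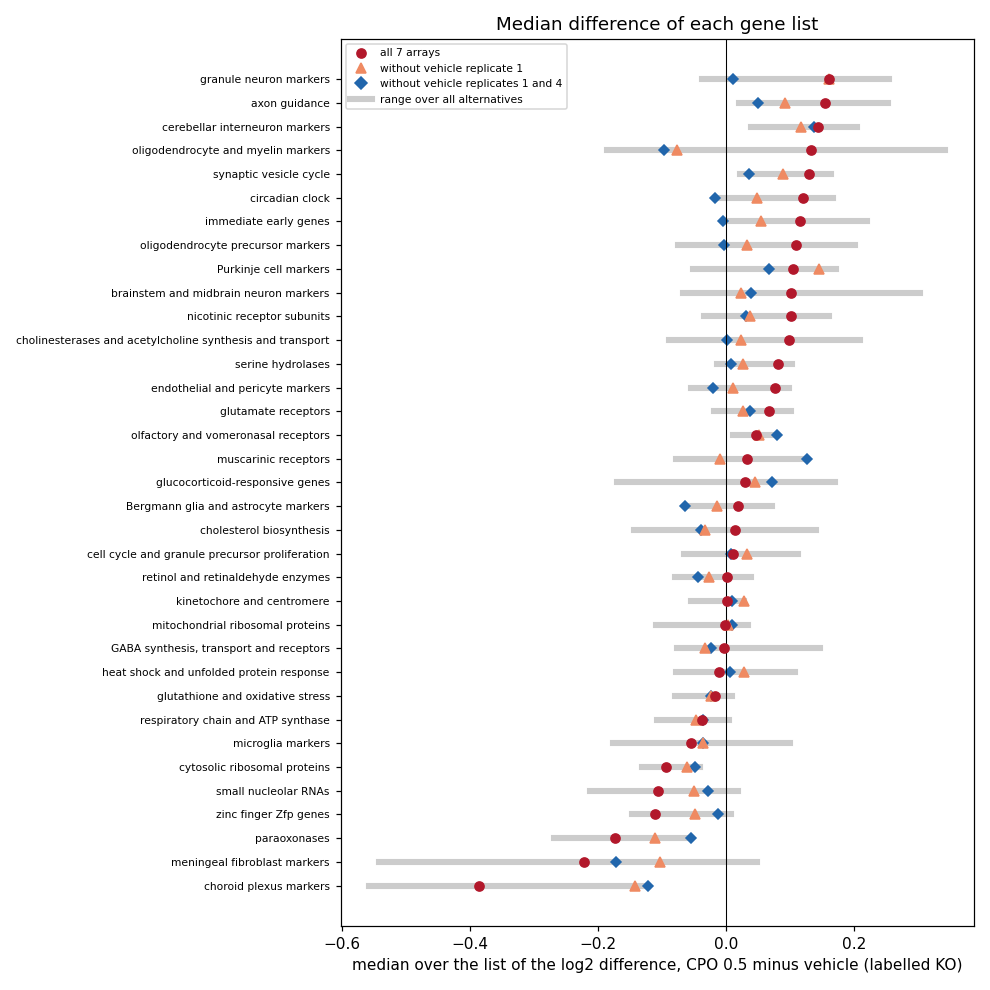
Median over each gene list of the log2 difference, CPO 0.5 minus vehicle, in the arrays labelled KO, with all 7 arrays (circles), without vehicle replicate 1 (triangles) and without vehicle replicates 1 and 4 (diamonds). Grey bars span all alternatives. The choroid plexus median is -0.39 with all 7 arrays and -0.14 without vehicle replicate 1.

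Cell type markers moved with individual arrays. In bulk tissue, fewer cells of a type and less RNA per cell cannot be told apart. All 10 choroid plexus markers tested, genes of the epithelium that makes cerebrospinal fluid, were lower in the CPO arrays, with a median of -0.39, and -0.14 without vehicle replicate 1. Their mean level was 8.07, 7.70 and 7.95 in the CPO arrays, against 8.87, 7.96, 8.20 and 8.17 in the vehicle arrays, so vehicle replicate 1 was the high array and CPO replicate 1 lay above vehicle replicate 2. The median of this list between CPO 0.5 and vehicle was -0.43 in WT, 0.15 in Q192 and 0.07 in R192. Kcnj13, a potassium channel of that epithelium, had the largest difference of all genes tested, at 8.70, 7.71 and 8.51 in the CPO arrays against 10.52, 8.69, 9.31 and 9.25 in the vehicle arrays (-1.14 ± 0.40). Sostdc1 was 7.07, 6.79 and 7.10 in the CPO arrays against 8.41, 7.12, 7.09 and 7.24 in the vehicle arrays. All 13 meningeal fibroblast markers were also lower, with a median of -0.22, which was -0.10 without vehicle replicate 1 and turned to 0.047 on date 2 alone, and with list means of 7.96, 7.96 and 8.39 in the CPO arrays and 8.70, 8.21, 8.48 and 8.19 in the vehicle arrays. Ogn, a proteoglycan of meninges, read 6.79, 7.10 and 7.61 in the CPO arrays against 8.76, 7.32, 8.22 and 7.70 in the vehicle arrays, and Crabp2 differed by -0.42 ± 0.20. How much of these tissues each dissection carried was not tested.

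Neuronal markers ran the other way. Of 22 granule neuron markers, 18 were higher (median 0.16), where 56.7% of all genes were higher. At an unadjusted p under 0.05, 1 was higher (4.55%, against 7.17% of all genes) and 0 lower. The list means were 10.50, 10.82 and 10.51 in the CPO arrays and 10.46, 10.59, 10.55 and 10.05 in the vehicle arrays, vehicle replicate 4 being low. Slc17a7, the vesicular glutamate transporter of granule neurons, differed by 0.53 ± 0.27 and Neurod2 by 0.28 ± 0.13. The granule median was 0.084 without vehicle replicate 4 and 0.01 without vehicle replicates 1 and 4. Of 19 Purkinje markers, 15 were higher (median 0.10, and 0.055 without vehicle replicate 4), with Lhx5 at 0.31 ± 0.15 beside Dner. Of 14 interneuron markers, 10 were higher (median 0.14, and 0.063 without vehicle replicate 4), with Slc32a1, the vesicular GABA transporter, at 0.56 ± 0.23. Of 30 brainstem and midbrain markers, 21 were higher (median 0.10), with Hoxb3 at 0.24 ± 0.10 and Penk at 0.33 ± 0.14. That median was 0.023 without vehicle replicate 1 and turned to -0.067 with the score on the first axis as covariate. On the higher side, 2 Purkinje (10.5%), 3 interneuron (21.4%) and 3 brainstem and midbrain markers (10%) had an unadjusted p under 0.05.

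Glial and vascular markers had no common direction. The myelin list mean was 10.46, 9.65 and 10.44 in the CPO arrays, against 9.61, 10.42, 10.24 and 10.36 in the vehicle arrays, so CPO replicate 2 and vehicle replicate 1 were both low. Its median difference was 0.13 and turned to -0.08 without vehicle replicate 1, while Aspa and Ermn, its members with the smallest p, differed by -0.45 ± 0.25 and -0.48 ± 0.27. The 8 oligodendrocyte precursor markers had a median of 0.11 (0.032 without vehicle replicate 1), with Cspg5 at 0.27 ± 0.17 and Matn4 at 0.14 ± 0.10. Bergmann glia and astrocyte markers (22 genes) had a median of 0.02. Aqp4, the water channel of astrocytes, lay below vehicle in every CPO array, at 11.90, 11.85 and 11.97 in the CPO arrays against 12.12, 12.05, 12.13 and 12.22 in the vehicle arrays, and Gfap differed by -0.45 ± 0.25. Of 24 microglia markers, 17 were lower (median -0.06, and -0.036 without vehicle replicate 1), with Ptprc at -0.29 ± 0.13 and Cd53 at -0.41 ± 0.21. Of 19 endothelial and pericyte markers, 12 were higher (median 0.08), with Tie1 at 0.26 ± 0.10 and Abcb1a at -0.25 ± 0.13. That median was 0.011 without vehicle replicate 1 and turned to -0.021 without vehicle replicates 1 and 4.

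**Figure D4:**
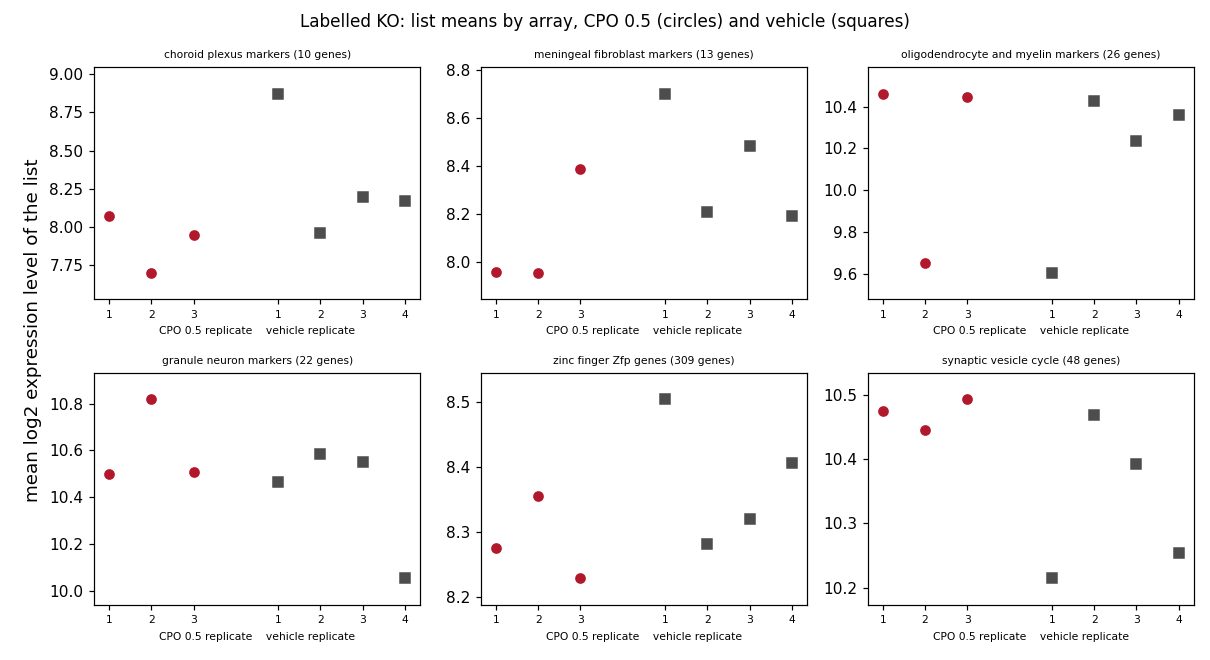
Mean log2 expression level of 6 gene lists in each array labelled KO, CPO 0.5 (circles, left) and vehicle (squares, right), by replicate. Choroid plexus markers are highest in vehicle replicate 1 (8.87), myelin markers are low in CPO replicate 2 (9.65) and vehicle replicate 1 (9.61), and granule neuron markers are lowest in vehicle replicate 4 (10.05).

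The higher dose was then set against the lower within the arrays labelled KO, which asks whether 0.5 differs from 0.35. No gene passed (0 of 14949, percent called 0, limma), and 558 (3.73%) had an unadjusted p under 0.05. The 558 became 331 without replicate 2 at CPO 0.5, and 1068 and 299 without replicates 1 and 5 at CPO 0.35. Car13 read 7.55, 7.49 and 7.70 at CPO 0.5 and 7.73, 8.99, 9.06, 8.04 and 8.24 at CPO 0.35, all higher than at 0.5 (difference -0.80 ± 0.20, SE). Phldb2 read 7.19, 6.95 and 7.20 at CPO 0.5 and 7.27, 7.63, 7.95, 7.33 and 7.82 at CPO 0.35. On the higher side, Alkbh7 differed by 0.32 ± 0.09 and 6530409C15Rik by 0.25 ± 0.08. Against the shared vehicle arrays, CPO 0.35 had 0 genes passing and 963 (6.44%) at an unadjusted p under 0.05.

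The same dose had the other sign for most genes in the arrays labelled WT. The difference between the effect of CPO 0.5 in KO and its effect in WT passed for 1375 genes (9.2% of 14949, limma with Benjamini-Hochberg adjustment, smallest adjusted p = 0.037), 841 with a higher effect in KO (5.63%) and 534 with a lower one (3.57%). With arrays centred on their medians the split was 625 and 939. For all 841 the estimate was above 0 in KO and below 0 in WT, and for all 534 the reverse. Choosing genes by a large difference of effects favours opposite signs, so this pattern is no separate test of direction. Over all genes tested, 28.1% had the same sign in KO and WT, and the KO and WT effects correlated at -0.615. The median size of the KO effect over the 1375 genes was 0.23 and that of the WT effect 0.30. Before adjustment 4733 genes (31.7%) had a p under 0.05 for this difference. In WT alone 155 genes passed (1.04%), 136 of them among the 1375, and 3276 (21.9%) had an unadjusted p under 0.05. Of 48 synaptic vesicle genes 15 were among those with a higher effect in KO, as were 13 of 59 axon guidance genes, against 5.63% of all genes. Of 33 heat shock and unfolded protein genes 8 were among them, while 1 had a lower effect. Among those with a lower effect in KO, 3.57% of all genes, were 16 of 58 cytosolic ribosomal protein genes and 20 of 80 respiratory chain genes. So were 30 of 309 Zfp genes, while 3 Zfp genes had a higher effect. Sez6l2, a neuronal membrane protein, read 10.28, 10.11 and 10.45 in KO at CPO 0.5 and 8.90, 10.44, 9.98 and 9.43 in KO with vehicle. In WT it read 9.66, 9.02 and 9.54 at CPO 0.5 and 10.66, 10.20, 10.02, 10.11, 10.39 and 10.17 with vehicle. Its KO groups thus overlapped and its WT groups did not. Its SD was 0.67 in KO with vehicle and 0.17 in KO at CPO 0.5. In WT it was 0.34 at CPO 0.5 and 0.23 with vehicle. With the spread taken over all groups of the series, the effects differed by 1.46 ± 0.37 (SE). Syn1, a synapsin, and Clstn3, a synaptic adhesion protein, followed at 1.23 ± 0.32 and 1.23 ± 0.30, then Ncdn and Jup at 1.19 ± 0.39 and 1.18 ± 0.35.

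On the lower side, Zfp442, Gm1976, Mir384, Mir99ahg and Zfp874b differed between the genotype labels by -1.15 ± 0.34, -1.14 ± 0.35, -1.10 ± 0.33, -1.06 ± 0.35 and -1.06 ± 0.24. Mir384 is shown by its mature forms because it is the microRNA gene among those named. The RefSeq sequences, GRCm38.p6, lie on the minus strand of chromosome X, with the seed (bases 2 to 8) in capitals.
mmu-miR-384-5p: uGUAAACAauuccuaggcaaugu
mmu-miR-384-3p: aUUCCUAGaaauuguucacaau
The seeds differ, and the array reads the gene and does not tell the arms apart. Mir384 read 8.40, 9.14 and 8.79 in KO at CPO 0.5 and 9.80, 8.78, 8.99 and 9.60 in KO with vehicle. In WT it read 9.02, 9.35 and 9.30 at CPO 0.5 and 8.34, 8.90, 9.11, 8.32, 8.54 and 8.66 with vehicle. The groups overlapped in both.

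The 1375 genes lay close to the threshold, with a smallest adjusted p of 0.037 (limma). Their count did not hold when certain single arrays were left out. It was 0 without KO CPO replicate 1 or 3 and without KO vehicle replicate 1 or 4. It was also 0 without WT CPO replicate 2 or 3 and without WT vehicle replicate 1 or 5. In these runs 2820 to 4384 genes had an unadjusted p under 0.05, against 4733 with all arrays. The count was 788 without WT vehicle replicate 2 and 854 without WT vehicle replicate 6. It rose to 1828 without KO CPO replicate 2, 2979 without KO vehicle replicate 2 and 2168 without KO vehicle replicate 3. It was 2075 without KO replicate 5 at CPO 0.35. Without WT CPO replicate 1 and WT vehicle replicates 3 and 4 it was 1539, 1958 and 2018. With the granule marker mean as covariate and with the score on the first axis as covariate it was also 0. On date 1, where WT at CPO 0.5 has 1 array, and on date 2, where KO at CPO 0.5 has 1 array, it was 0 as well, and with an arm of 1 array these values say little about stability. The first principal axis averaged -10.73 in KO at CPO 0.5 and 5.77 in KO with vehicle, against 8.21 in WT at CPO 0.5 and -9.86 in WT with vehicle, so the groups were ordered along it in opposite ways, and its part in the result was not tested beyond that covariate. KO with vehicle spread more along that axis (SD 17.9) than WT with vehicle (SD 5.65), while the fit took a spread pooled over all groups. Chrnb4 was among the 1375 (0.46 ± 0.13).

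**Figure D5:**
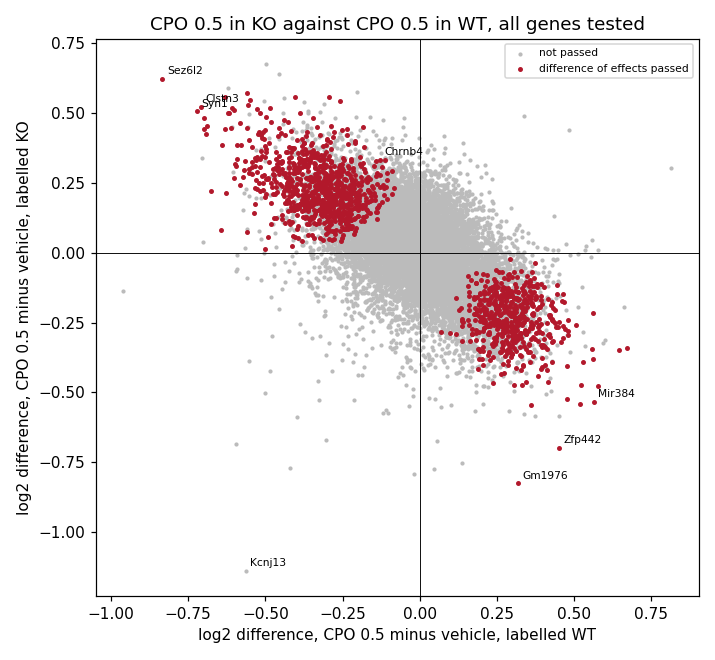
Log2 difference, CPO 0.5 minus vehicle, in arrays labelled KO (vertical axis) against that in arrays labelled WT (horizontal axis), for 14949 genes. The 1375 genes whose difference of effects passed (red) lie at upper left (841) and lower right (534), and Kcnj13 is lower in both.

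The remaining genotypes gave their own values for the 24 genes. The sign in KO was shared by 7 of 24 in WT (28.1% of all genes), by 1 of 24 in Q192 (24.5% of all genes) and by 16 of 24 in R192 (59.0% of all genes). These comparisons share no arrays with the KO comparison. In Q192 and R192, 0 genes passed at CPO 0.5 (percent called 0 in each, limma), with 1974 (13.2%) and 152 (1.02%) at an unadjusted p under 0.05.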

How the data were processed

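RNA from cerebellum was hybridised to Affymetrix Mouse Gene 1.0 ST arrays. The deposited values are log2 expression levels made by the authors with Affymetrix Expression Console 1.1 and RMA, per the submitters' processing notes; the log base is not stated and was taken from the range of 1.15 to 14.80. RMA brings all arrays to a common distribution, so a shift shared by most genes would not show. Of 35557 probe sets, 21789 with one symbol gave 19938 genes (highest mean where a gene had several). Genes above the 25th percentile of level (6.44), less 4 sex-linked genes, left 14949.

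All 55 arrays entered one limma 3.58.1 fit (R 4.3.3) with 12 group means, array date, and a correlation of 0.131 between arrays sharing a description number. Variances were moderated with a trend, residual degrees of freedom were 42, and p-values took the Benjamini-Hochberg adjustment over all genes, with 0.05 as the threshold for passing. The fit was tested on simulated data. Figures used Python 3.11.15 and matplotlib 3.10.9. Numbers of arrays limit the precision.

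Members and lists were chosen with earlier results of these data known. Genes were named by rule: the 12 higher and 12 lower with the smallest p, the 5 largest each way without overlap, Pon1, Pon2, Pon3, Ache and Bche, 2 per list, 2 each way between doses, and 5 each way between KO and WT. Lists are described by counts and medians with no list test; the red blood cell list had 2 genes tested, with a median of -0.16. Alternatives changed one setting at a time.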

Additional observations from a re-analysis of the deposited data

Results flagged for a closer look

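A test for a single array far from the others of its group (Dixon's rule) was applied to the 4 vehicle arrays labelled KO, over 132 named genes and list means, and about 1 group in 20 is picked by chance. It picked 5 of the 132, a smaller share than 1 in 20. Many of the items were named from these same arrays, so the picks are not independent of that choice. All items were read on the same 4 arrays, so the share does not decide whether an array stands apart. Each pick was vehicle replicate 1. That array read 7.35 for Sh2b2 (next 7.73), 7.45 for Olfr267 (next 7.19), 6.40 for Matn4 (next 6.77), 8.41 for Sostdc1 (next 7.24) and 8.05 for the mean of the oligodendrocyte precursor markers (next 8.45). The effect of CPO 0.5 differed between arrays labelled KO and WT by limma's test of that difference for 1375 genes. The largest differences were 1.46 for Sez6l2, 1.23 for Clstn3, 1.23 for Syn1, 1.19 for Ncdn and 1.18 for Jup on the higher side, and -1.15 for Zfp442, -1.14 for Gm1976, -1.10 for Mir384, -1.06 for Mir99ahg and -1.06 for Zfp874b on the lower side.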

How the results depend on the processing

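No gene passed between CPO 0.5 and vehicle, or between CPO 0.5 and 0.35, in the arrays labelled KO under any alternative run. The unadjusted count of 1913 was 789 on the 7 arrays alone, 692 on the 12 KO arrays alone, 525 on date 1 and 904 on date 2. Leaving out single arrays gave 326 to 3358. Chosen after seeing the data, leaving out both vehicle arrays 1 and 4 gave 110 and the first principal axis as a covariate 257. The 558 between doses became 261 on the 12 KO arrays alone, 293 on date 2, 334 with the granule covariate, 355 above the median level, where fewer genes were tested, 350 with the replicate block, and 299 to 1068 without single arrays. The 1335 genes without overlap became 2593 with arrays of one group, number and date averaged, 3859 and 11373 on date 1 and date 2, 840 above the median level, 2455 without both vehicle arrays, and 1631 to 3650 without single arrays; fewer arrays overlap less often. The 1375 genes whose effect differed between KO and WT became 760 with averaged arrays, 379 with no level filter, 2409 with a brainstem marker covariate, 0 with the granule covariate, the first axis, without both vehicle arrays, or on date 1 or date 2, and 0 to 2979 without single arrays. The replicate block on replicate numbers gave 0, 0 and 1873 genes passing for the 3 comparisons and an unadjusted count of 1824. Taken as deviations from their group means, CPO and vehicle arrays of the same replicate number correlated at -0.28, -0.41 and 0.33. These values had no common sign and do not settle whether the replicate numbers pair the arrays. Signs turned for Crabp2 on date 2 (0.031), Chrm2 with array weights (0.043), Pon1 (0.0036) and Cspg5 (-0.040) without both vehicle arrays, and, with the first axis, Ache (-0.066), Srebf2 (-0.012), Cspg5 (-0.031), Ncdn (-0.087, KO minus WT) and Mir99ahg (0.018, KO minus WT); the causes were not tested. The small groups and the missing sex label limit all of this.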
